A study of Mus musculus with 31 samples.

Results

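The olfactory nerve of the mouse embryo was compared between E16.5 and E13.5 (E, embryonic day), as it runs through the lamina propria of the olfactory mucosa. Of the 31 libraries of the series, 11 entered the comparison, 4 from E16.5 and 7 from E13.5. All came from embryos that carry the Sox10:Histone2BVenus transgene, whose nuclear fluorescence marks Sox10-expressing glia and guided the laser on cryosections. No treatment was listed. Each library was made from several sections pooled, so it is a piece of nerve with the tissue at its edge, not a sorted cell population. The pieces outnumbered the embryos at E13.5, and which libraries share an embryo was not given, so p-values over pieces are too small.

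The 7 E13.5 libraries were taken as the study's own table of group means takes them, not by label. They are replicates 2 to 7 of the label E13.5 olfactory nerve and replicate 1 of the label E13.5 olfactory nerve layer (ONL). The library labelled E13.5 olfactory nerve replicate 1 was left out, since that table counts it with the E13.5 ONL, where olfactory axons meet the bulb. It stood apart from the 7, with Npy at 397 CPM and Prss56 at 90.03 CPM, against at most 3.16 and 0.249 CPM in them. The grouping by label, with replicates 1 to 7 at E13.5, was run as an alternative, and its values stand beside the named genes and counts whose call it changes.

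Olfactory ensheathing cells (OECs) are the glia of this nerve. They arise from the neural crest, express Sox10, and wrap bundles of thin axons that olfactory sensory neurons send from the nasal epithelium to the olfactory bulb. In the lamina propria the nerve bundles lie among mesenchyme, blood vessels, macrophages and, later, gland ducts, close to the cartilage of the nasal capsule. The days compared span the time at which red cells from the yolk sac are replaced in the circulation by red cells from the liver.

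Totals of counts were 14914541 to 16291260 per library at E16.5 and 5297347 to 16413112 at E13.5. Levels are in CPM, counts per 1000000 counts of a library, after edgeR's TMM scaling, and the 4 values of E16.5 libraries are given in the order of replicates 1 to 4. Means are ± SD, with E13.5 (n = 7) before E16.5 (n = 4). Sox10 and Fabp7 were present in all 11 libraries. Transcripts of the mitochondrial genome summed to 9697 to 18832 CPM at E13.5 and 5037 to 7122 CPM at E16.5, without overlap. Of 5 sex-linked genes tested, 0 were called by edgeR's quasi-likelihood test and 0 by DESeq2, and 0 had an unadjusted p under 0.05. Among them, Xist stood at 172 CPM in E16.5 replicate 3 and at most 0.0554 CPM in the other E16.5 libraries. A gene that differs within a group can miss the call, and the part of sex was not tested. In bulk tissue, fewer cells of a type and less RNA per cell cannot be told apart.

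Of 19332 genes that passed the filter on low counts, 5564 (28.8%) were called at an adjusted p under 0.05. The test was edgeR's quasi-likelihood F-test, adjusted by Benjamini and Hochberg's method, and "called", "rose" and "fell" below refer to it. Of the 5564, 2930 (15.2% of genes tested) were higher at E16.5 and 2634 (13.6%) were lower. Rises were larger than falls: 1512 genes rose by a log2 fold change of at least 1 and 862 fell by as much, while 240 and 62 passed a log2 fold change of 3. The median over all genes tested was -0.02. The libraries of the 2 groups did not overlap for 4094 genes (21.2%), of which 2206 (11.4%) were higher and 1888 (9.77%) lower at E16.5. Leaving out E16.5 replicate 3 reduced the genes called lower to 1459, and leaving out replicate 4 to 1887. Of the 623 members of the 33 gene lists described here, 600 were tested.

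Among called genes whose higher stage averaged at least 50 CPM, the 10 largest rises belonged to Cbr2 (log2 fold change 6.57), Sfrp4 (6.24), Matn1 (6.15), Chad (5.66), F13a1 (4.92), Col11a2 (4.92), Sostdc1 (4.88), Omd (4.84), Acta2 (4.83) and Agt (4.65). They include a reductase of airway and nasal epithelium, secreted Wnt modulators, cartilage matrix proteins, a macrophage transglutaminase and smooth muscle actin. Omd, a bone and mesenchyme proteoglycan, was 2.17 ± 0.884 CPM at E13.5 and 61.4 ± 10.4 CPM at E16.5, and Agt, the precursor of angiotensin, 4.45 ± 2.13 CPM at E13.5 and 112 ± 37.8 CPM at E16.5. The 10 largest falls were Hbb-y (-8.61), Hba-x (-6.49), Hsd3b6 (-3.38), Hmga2 (-2.81), Hist1h4d (-2.18), Zfhx4 (-2.07), Nhlh2 (-2.06), Kif26b (-2.02), Basp1 (-1.91) and Hnrnpab (-1.78). Hsd3b6, a steroid dehydrogenase, ran from 39.3 to 96.3 CPM with a median of 60.1 at E13.5 and stood at 8.04, 8.17, 4.16 and 4.93 CPM at E16.5. Zfhx4, a zinc finger homeobox factor of early mesenchyme and neurons, ran from 66.7 to 129 CPM with a median of 108 and stood at 24.1, 21.2, 34.1 and 17.7 CPM (log2 fold change -2.07, SE 0.22, adjusted p = 4.79e-08). Basp1, a membrane protein of growing axons, ran from 53.1 to 79.5 CPM with a median of 62.4 and stood at 16.2, 18.3, 13.1 and 21.8 CPM. None of these 20 genes had libraries of the 2 stages that overlapped, since they were chosen to have none in either grouping.

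**Figure D1:**
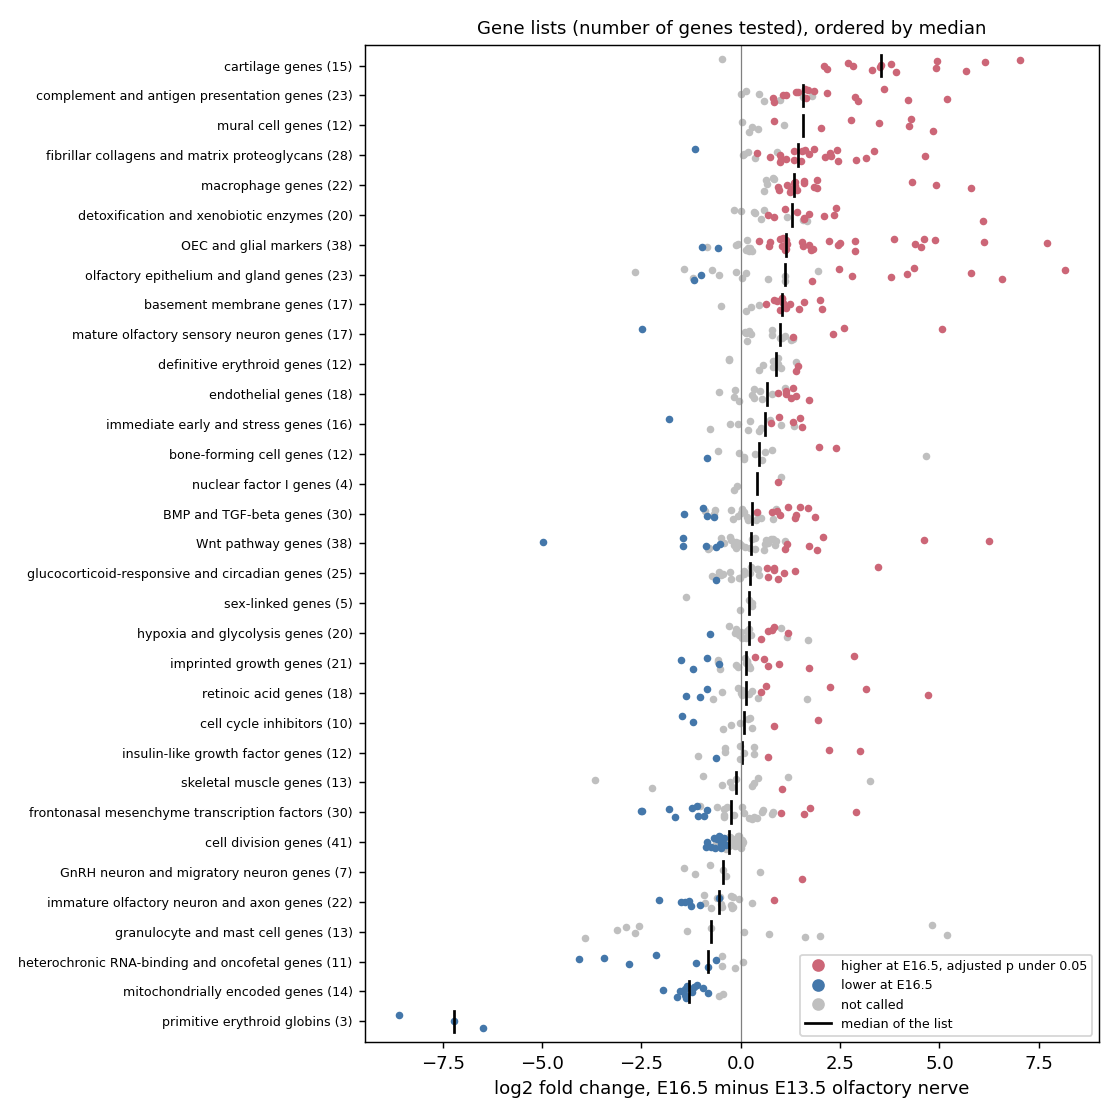
Log2 fold change (E16.5 minus E13.5 olfactory nerve, horizontal axis) of each tested member of the 33 gene lists, with the number tested in parentheses. Red points were called higher at E16.5, blue points lower, grey points were not called, and black bars are list medians, which run from -7.20 for primitive globins to 3.54 for cartilage genes.

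Embryonic globins led the falls. Hbb-y and Hbb-bh1, the embryonic beta-like chains, and Hba-x, the embryonic alpha-like chain, are made by the primitive red cells of the yolk sac. At E13.5 Hbb-y ran from 4928 to 8368 CPM with a median of 6765, and at E16.5 the libraries held 14.2, 14.7, 24.4 and 17.3 CPM (log2 fold change -8.61, SE 0.87, adjusted p = 2.04e-08). The mean was 391-fold lower. Hba-x ran from 310.2 to 803 CPM with a median of 431 and was then at 5.01, 4.46, 10.01 and 3.88 CPM (log2 fold change -6.49, SE 0.63, adjusted p = 9.58e-09). For Hbb-bh1 the range was 24.4 to 84.9 CPM with a median of 39.5, against 0.371, 0.371, 0.585 and 0 CPM (log2 fold change -7.20, SE 0.75, adjusted p = 3.35e-08). All 3 tested members of the list fell, with no overlap between stages and under every alternative.

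The adult globins were not called. Hba-a1, an adult alpha chain, ran from 770.5 to 1569 CPM with a median of 1274 at E13.5 and stood at 3815, 1106, 1258 and 1194 CPM at E16.5 (adjusted p = 0.32). Hbb-bt, an adult beta chain, ran from 115 to 638 CPM with a median of 409 and stood at 1501, 374, 584 and 521 CPM (adjusted p = 0.229). E16.5 replicate 1 was the highest for both, and its summed definitive red cell genes came to 10115 CPM, against 2817 to 3666 CPM in the other 3. Hba-a2 is nearly identical to Hba-a1, so the split of reads between them is uncertain, and 1 E13.5 library had 0.889 CPM of it while the others reached 376 CPM. Of the 12 definitive erythroid genes tested, 2 (16.7%) rose, near the 15.2% of all genes, and none fell, with a median of 0.88. One was Alas2, the first enzyme of haem synthesis in red cells (means 48.2 ± 14.5 and 126 ± 63.5 CPM, adjusted p = 0.0179), which did not pass without E16.5 replicate 1 (adjusted p = 0.129). No member of the list was called without E16.5 replicate 1, and 1 was without replicate 3.

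**Figure D2:**
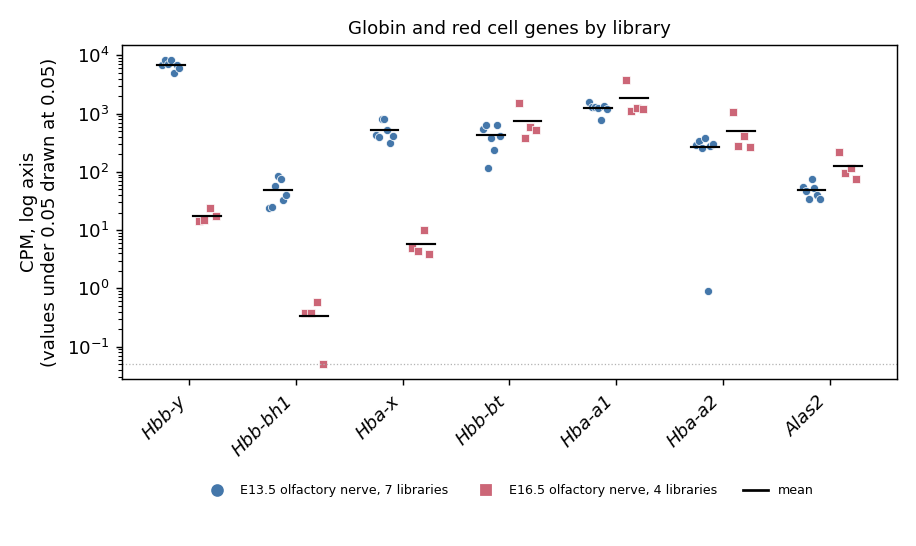
Level of globin and red cell genes in each library (CPM, log axis), E13.5 olfactory nerve as blue circles (7 libraries) and E16.5 as red squares (4 libraries), with black bars for means. The 3 embryonic globins at the left separate completely, with Hbb-y means of 6895 and 17.7 CPM, while the adult chains overlap.

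Promoters of 2 embryonic and 2 adult globins are printed because they share short motifs while their levels parted. They are RefSeq sequences (build GRCm38.p6) from 250 bases before to 50 bases after the gene start, on the strand of the gene, and capitals mark CCACCC, which binds erythroid Krüppel-like factors, and CCAAT. Both motifs were searched on both strands, so GGGTGG and ATTGG were also marked, and 2 marks may touch. Hbb-bh1 is named only.
Hbb-y, chr7:103853158-103853457, minus strand: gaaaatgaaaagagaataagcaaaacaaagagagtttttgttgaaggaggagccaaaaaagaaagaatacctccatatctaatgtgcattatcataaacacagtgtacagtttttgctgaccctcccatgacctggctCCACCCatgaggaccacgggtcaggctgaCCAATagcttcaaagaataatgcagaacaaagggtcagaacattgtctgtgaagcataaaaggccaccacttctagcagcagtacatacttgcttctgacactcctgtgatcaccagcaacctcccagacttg
Hba-x, chr11:32276350-32276649, plus strand: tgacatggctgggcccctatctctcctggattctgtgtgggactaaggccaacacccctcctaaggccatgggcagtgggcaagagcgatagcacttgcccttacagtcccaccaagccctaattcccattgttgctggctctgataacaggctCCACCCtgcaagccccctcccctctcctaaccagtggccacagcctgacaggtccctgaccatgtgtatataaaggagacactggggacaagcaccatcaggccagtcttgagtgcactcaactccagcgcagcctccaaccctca
Hba-a1, chr11:32283422-32283721, plus strand: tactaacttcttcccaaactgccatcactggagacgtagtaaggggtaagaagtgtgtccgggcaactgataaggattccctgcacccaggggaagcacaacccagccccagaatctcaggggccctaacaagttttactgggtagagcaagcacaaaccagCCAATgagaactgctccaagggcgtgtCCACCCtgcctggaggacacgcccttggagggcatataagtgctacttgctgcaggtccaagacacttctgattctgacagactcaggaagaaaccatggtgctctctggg
Hbb-bt, chr7:103813874-103814173, minus strand: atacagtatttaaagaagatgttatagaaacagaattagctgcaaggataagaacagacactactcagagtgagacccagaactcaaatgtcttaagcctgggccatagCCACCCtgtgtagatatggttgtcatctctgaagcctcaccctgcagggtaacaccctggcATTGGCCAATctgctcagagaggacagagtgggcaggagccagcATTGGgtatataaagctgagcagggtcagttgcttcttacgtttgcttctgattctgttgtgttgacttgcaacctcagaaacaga
CCACCC stood once in each of the 4 windows, and in 31.5% of 32851 promoters of the same length. CCAAT was found in Hbb-y, Hba-a1 and Hbb-bt, and in 37.4% of promoters. Both motifs stood in the gene's own direction in Hbb-y, which fell, and in Hba-a1 and Hbb-bt, which were not called. On either strand, both stood in 11.4% of promoters.

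Heterochronic genes, which keep tissues in an early developmental state, fell in part. Of 11 tested, 7 were lower and none higher (5 and none by label), with a median of -0.82 (or -0.72 without Lin28a, which is near the floor in both groups), against 13.6% lower among all genes. Hmga2, a chromatin protein of proliferating embryonic cells, ran from 70.2 to 94.1 CPM with a median of 82.9 at E13.5 and stood at 9.72, 13.49, 10.99 and 12.5 CPM at E16.5 (log2 fold change -2.81, SE 0.28, adjusted p = 1.23e-08). Lin28b, an RNA-binding protein that blocks the maturation of let-7 microRNAs, ran from 2.89 to 4.68 CPM with a median of 3.73 and stood at 0.619, 0.0619, 0.52 and 0.166 CPM (log2 fold change -3.44, SE 0.49, adjusted p = 5.34e-06). The 4 later libraries lay below all 7 earlier ones for both genes. Igf2bp1, an oncofetal mRNA-binding protein, ran from 16.4 to 22.5 CPM with a median of 17.3 and then stood at 6.44, 8.602, 8.84 and 9.47 CPM (log2 fold change -1.12, SE 0.21, adjusted p = 1.81e-04). Its relative Igf2bp3 fell from a mean of 66.3 ± 6.88 to 42.96 ± 7.82 CPM, a smaller step (log2 fold change -0.63, SE 0.12, adjusted p = 1.87e-04), and the third family member, Igf2bp2, had means of 106 ± 13.6 and 111 ± 14.6 CPM and was not called (adjusted p = 0.75).

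Trim71, a ubiquitin ligase and let-7 target, was low at both stages, 0.347 to 2.27 CPM with a median of 0.909 and then 0.124, 0.248, 0.13 and 0.443 CPM (log2 fold change -2.14, SE 0.54, adjusted p = 0.00339). Lin28a had no count in any E16.5 library and at most 0.415 CPM at E13.5, so no fold is given, and its call (adjusted p = 0.0448) was lost by label (adjusted p = 0.163) and when any 1 of E13.5 replicate 7 or E13.5 ONL replicate 1 or E16.5 replicates 1, 2, 3, 4 was left out (adjusted p up to 0.093). Arid3b, a DNA-binding factor of early mesenchyme, fell from 10.6 ± 2.07 to 6.004 ± 1.36 CPM (adjusted p = 0.0216), and missed the threshold without E16.5 replicate 1 (adjusted p = 0.0949) and by label (0.0866). Hmga1 (means 11.9 ± 4.37 and 8.52 ± 3.37 CPM), Mycn (means 23.4 ± 6.19 and 16.9 ± 6.63 CPM) and Arid3a (means 13.4 ± 3.84 and 12.1 ± 3.27 CPM) were not called.

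The let-7 family and its sites are shown because several of these genes are known let-7 targets. Mature let-7 was not measured here. All 9 family members in RefSeq share the seed at bases 2 to 8, in capitals.
mmu-let-7a-5p, chr13:48538239-48538260, minus strand: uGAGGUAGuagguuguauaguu
mmu-let-7b-5p, chr15:85707325-85707346, plus strand: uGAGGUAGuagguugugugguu
mmu-miR-98-5p, chrX:151913229-151913250, plus strand: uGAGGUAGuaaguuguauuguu
The matching site in an mRNA is CTACCTC, or CTACCTCA (8 bases, capitals) with an A opposite the first base. One such 8-base site is given for each of 4 genes that fell, from the 3′ UTR of the longest coding form in GENCODE M21 (GRCm38, all on the minus strand).
Hmga2, chr10:120364216-120364245: ccgacattcaatttCTACCTCAgcatcagt
Lin28b, chr10:45381014-45381043: cccgggcgggaagtCTACCTCAtgcaagca
Trim71, chr9:114512464-114512493: acattgcctaagtcCTACCTCAgcttaaat
Igf2bp1, chr11:95961770-95961799: ctgtgcgaagtaaaCTACCTCAaggtgtga
The 8-base site stood in 8 of the 11 genes and in 3.57% of 15641 tested genes with a 3′ UTR. CTACCTC, which includes it, stood in 10 of the 11 and in 10.3%. It occurred 4 times each in Hmga2, Lin28b, Trim71 and Igf2bp1, and 4 or more copies stood in 0.0767% of the tested genes. Igf2bp3, Arid3b and Lin28a, which were also called lower, held 1, 1 and 2. Igf2bp2, Arid3a and Hmga1, which were not called, held 1, 2 and 1. Mycn held none in this window. Since these genes were listed as known let-7 targets, the matches are a description.

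**Figure D3:**
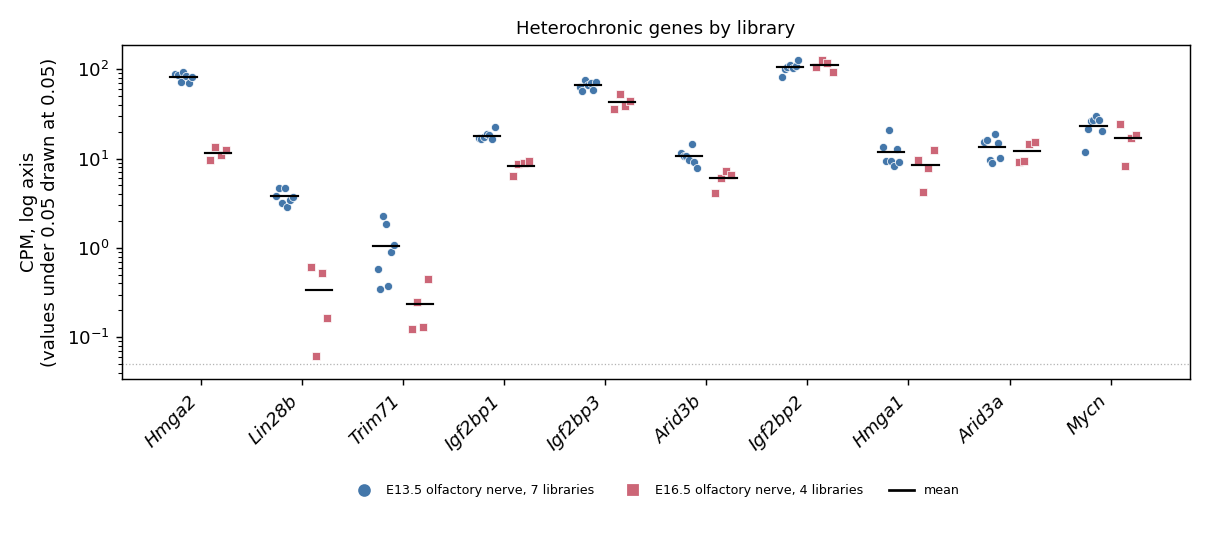
Level of heterochronic genes in each library (CPM, log axis), E13.5 as blue circles and E16.5 as red squares, with black bars for means. Hmga2 means were 82.1 and 11.7 CPM, and Igf2bp2 at 106 and 111 CPM overlaps.

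Most genes of the glial list rose. Of the 38 OEC and glial markers tested, 27 (71.1%) were higher at E16.5 and 2 lower, with a median of 1.14, and the list's summed level was 3167 to 4512 CPM at E13.5 and 6332 to 11024 CPM at E16.5. The study's in situ hybridization placed members such as Npy, Prss56, Wif1 and Vtn in OECs of the ONL, not of the mucosa. It found Hes1 and Ptn in mesenchyme beside the nerve too. Wif1 and Nkd2 were also seen in mesenchyme near the olfactory epithelium. The study proposes that mesenchyme as the likely source of their levels in olfactory nerve pieces. The cells behind each rise were not told apart. Sox10, the transcription factor that defines the lineage, ran from 39.9 to 85.4 CPM with a median of 48.9 at E13.5 and stood at 97.5, 179.8, 122 and 104 CPM at E16.5 (log2 fold change 1.13, SE 0.23, adjusted p = 3.59e-04). For Fabp7, the early glial fatty acid-binding protein, the values were 293 to 769 CPM with a median of 421 and then 1500, 2738, 1109 and 1054 CPM (log2 fold change 1.81, SE 0.24, adjusted p = 2.06e-06). In both the later libraries lay above the earlier ones. Apoe, a lipid carrier of glia and macrophages, rose from 156 ± 105 to 1155 ± 336 CPM and S100b, a calcium-binding glial protein, from 20.6 ± 6.42 to 96.2 ± 34.96 CPM.

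Several genes of the glial list that were near 0 at E13.5 were present at E16.5. In situ hybridization by the study at E16.5 found no clear Npy, Prss56 or Ptgds signal in OECs of the mucosa. Sostdc1 was weak in those OECs and strong in Sox10-negative cells on the nerve, presumed there to be migrating neurons. Which cells gave the transcripts was not tested here. Npy, a neuropeptide of OECs in the nerve layer, ran from 0.37 to 3.16 CPM with a median of 1.73 at E13.5 and stood at 57.98, 26.3, 32.2 and 33.8 CPM at E16.5 (log2 fold change 4.39, SE 0.45, adjusted p = 2.19e-08). Prss56, a serine protease, was at or under 3 counts in every E13.5 library and at 30.4, 3.28, 14.4 and 12.8 CPM at E16.5, at least 58.98-fold higher against 3 counts per library. Ptgds, prostaglandin D synthase, was at 2.97, 6.44, 0.325 and 1.44 CPM, at least 10.8-fold higher. Sostdc1, a secreted BMP and Wnt antagonist, ran from 1.64 to 8.999 CPM with a median of 2.25 and then stood at 121, 113, 109 and 99.7 CPM (log2 fold change 4.88, SE 0.50, adjusted p = 2.21e-08). Gfap, the astrocyte intermediate filament, rose from a mean of 0.667 ± 0.367 to 16.2 ± 7.25 CPM.

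These glial values depend on which E13.5 libraries are used. Grouped by label, with the E13.5 replicate 1 library in, 12 of the 38 were higher and 1 lower. That library held 219 CPM of Sox10, 5902 of Fabp7 and 397 of Npy. In that grouping Sox10 (log2 fold change 0.71, adjusted p = 0.157), Fabp7 (0.43, 0.641), Prss56 (0.17, 0.935) and Ptgds (1.53, 0.187) were not called, and Npy turned to -0.65 (adjusted p = 0.717). Sostdc1 (5.08, 5.67e-06) still rose. Without the library labelled E13.5 ONL replicate 1, which is in the main group, 27 were higher and none lower. The 2 genes that fell were Hes1, a Notch effector (means 44.8 ± 19.3 and 22.8 ± 5.54 CPM, adjusted p = 0.0438), and Fyn, a Src family kinase (means 71.3 ± 32.8 and 47.8 ± 6.25 CPM, adjusted p = 0.0404). Neither was called by label (adjusted p = 0.12 and 0.0677) or without E13.5 replicate 4 or E16.5 replicate 1, 3 or 4, and 1 of the pair without E13.5 replicate 7 or E16.5 replicate 2.

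As a description, the CPM of each marker was divided by that of Sox10 in the same library. Of the 37 other markers, 10 had a ratio that was higher at E16.5 without overlap, as did 0.972% of all genes tested, and 6 had a lower one, as did 37.3%. The remaining 21 overlapped. These counts are for the main grouping, and counts by label were not computed. In the E13.5 replicate 1 library Npy exceeded Sox10, while the Npy ratio was at most 0.595 at E16.5, so by label it overlaps. The Prss56 ratio in that library also exceeded its highest E16.5 value of 0.312, so Prss56 overlaps by label too. The ratio was 1.08 to 4.61 at E13.5 and 6.47 to 16.2 at E16.5 for Apoe and 0.0951 to 0.176 at E13.5 and 0.378 to 0.524 at E16.5 for Sema3b, a secreted semaphorin. Others with a higher ratio were Gfap, S100b, Mmd2, Npy, Wif1, Prss56 and Sostdc1. Fabp7 (3.903 to 11.6 at E13.5 and 9.09 to 15.4 at E16.5) and Erbb3, the neuregulin receptor of neural crest glia (0.456 to 1.01 at E13.5 and 0.623 to 0.774 at E16.5), overlapped. Lower ratios were found for Frzb, Ngfr, Sema6a, Hes5, Fyn and Hes1. Ngfr, the low-affinity neurotrophin receptor of early glia, had a ratio of 0.0996 to 0.294 at E13.5 and 0.072 to 0.0958 at E16.5. Macrophages, whose genes also rose, make Apoe, and their part in its ratio was not tested.

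**Figure D4:**
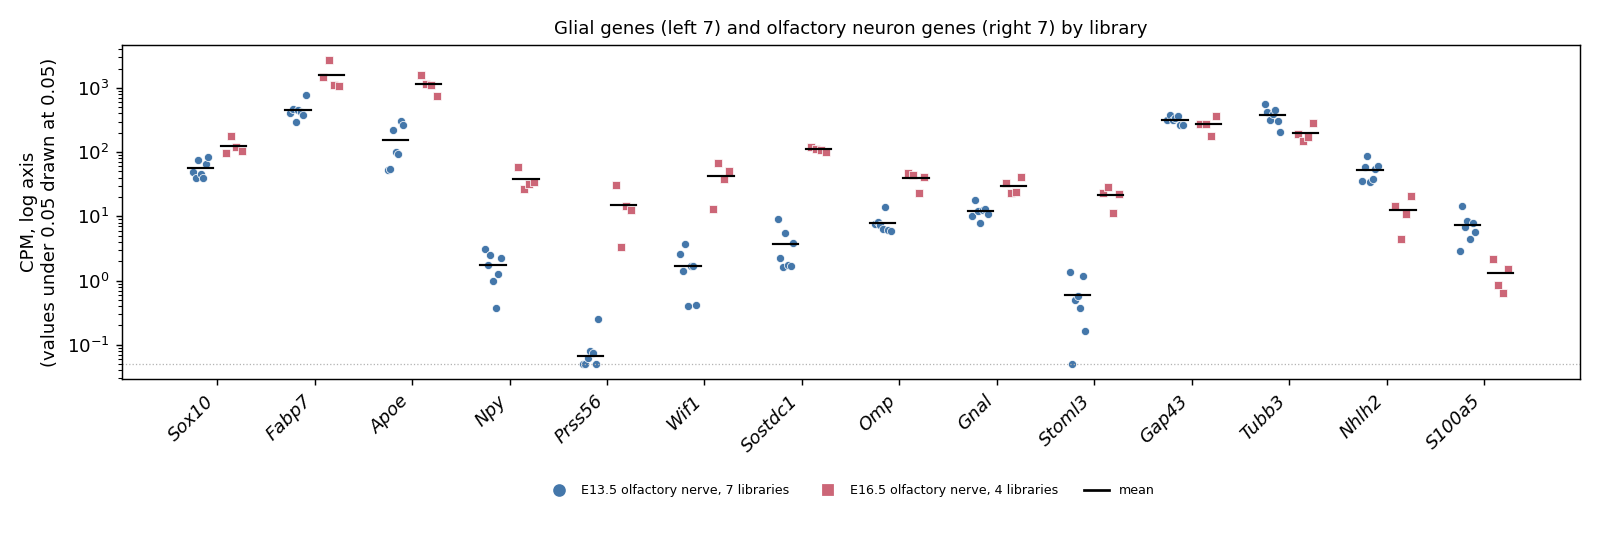
Level of glial genes (left) and olfactory neuron genes (right) in each library (CPM, log axis, values under 0.05 drawn at 0.05), E13.5 as blue circles and E16.5 as red squares, with black bars for means. The later libraries lie above the earlier ones for the 7 glial genes and for Omp, Gnal and Stoml3, overlap for Gap43 and Tubb3, and lie below for Nhlh2 and S100a5.

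Some genes of immature neurons fell and some of mature ones rose. The nerve holds axons, not cell bodies, apart from migrating neurons and any epithelium at its edge. Of 22 genes of immature neurons and axons, 7 (31.8%) fell and 1 (4.55%) rose, against 13.6% and 15.2% of all genes. The median was -0.54, and without E16.5 replicate 3 the number that fell was 2. Nhlh2, a helix-loop-helix factor of young neurons, ran from 34.1 to 87.6 CPM with a median of 53.9 at E13.5 and stood at 14.5, 4.39, 10.9 and 20.4 CPM at E16.5 (log2 fold change -2.06, SE 0.39, adjusted p = 2.23e-04). The related Nhlh1 fell from a mean of 35.8 ± 9.11 to 14.5 ± 8.88 CPM, Elavl3, an RNA-binding protein of new neurons, from 71.7 ± 18.2 to 30.3 ± 15.3 CPM, and Elavl4 from 344 ± 94.3 to 168 ± 71.5 CPM. The neurofilament genes Nefm (means 1.81 ± 0.389 and 0.639 ± 0.485 CPM, adjusted p = 9.81e-04) and Nefl (means 8.86 ± 2.35 and 3.38 ± 3.65 CPM, adjusted p = 0.012) fell from low levels, and Nefl lost its call without E16.5 replicate 1, 3 or 4 (adjusted p up to 0.0683). The axon genes Gap43 (means 321 ± 44.03 and 272 ± 74.9 CPM, adjusted p = 0.63), Tubb3 (means 379 ± 113 and 198 ± 58.6 CPM, adjusted p = 0.0905), Stmn2 (means 384 ± 95.6 and 255 ± 61.2 CPM, adjusted p = 0.18) and Gng8 (means 70.1 ± 10.9 and 49.3 ± 15.8 CPM, adjusted p = 0.0644) were not called. The member that rose was Nrp1, a semaphorin receptor (means 202 ± 20.4 and 358 ± 77.99 CPM).

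Of 17 genes of mature olfactory sensory neurons, 4 (23.5%) rose and 1 (5.88%) fell, against 15.2% and 13.6% of all genes. The median was 0.98. Omp, the olfactory marker protein, ran from 5.89 to 14.1 CPM with a median of 7.32 at E13.5 and stood at 48.2, 44.7, 23.3 and 41.6 CPM at E16.5 (log2 fold change 2.31, SE 0.44, adjusted p = 2.02e-04). Gnal, the olfactory G protein alpha subunit, ran from 7.79 to 17.8 CPM with a median of 12.1 and stood at 32.9, 22.9, 23.7 and 40.7 CPM (log2 fold change 1.32, SE 0.25, adjusted p = 1.73e-04). Stoml3, a stomatin-like protein of olfactory cilia, ran from 0 to 1.34 CPM with a median of 0.505 and then stood at 23.02, 28.8, 11.4 and 22.7 CPM (log2 fold change 5.07, SE 0.57, adjusted p = 2.84e-07). The stages did not overlap for any of these. Umodl1, an olfactory neuron surface protein, rose from a mean of 0.784 ± 0.553 to 4.73 ± 3.41 CPM (adjusted p = 0.0272), but not without E16.5 replicate 2 or E13.5 replicate 4 (adjusted p up to 0.152). Cnga2, the olfactory cyclic nucleotide-gated channel, did not pass (means 11.2 ± 2.52 and 27.7 ± 8.71 CPM, adjusted p = 0.0724) although its groups did not overlap, and Adcy3, the olfactory adenylyl cyclase, had means of 9.18 ± 2.83 and 10.3 ± 1.79 CPM (adjusted p = 0.664). S100a5, a calcium-binding protein of odour-exposed neurons, went the other way, 2.92 to 14.7 CPM with a median of 6.94 and then 2.17, 0.866, 0.65 and 1.495 CPM (log2 fold change -2.47, SE 0.57, adjusted p = 0.00146). By label it was not called (adjusted p = 0.157).

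Genes of migrating neurons varied widely among libraries. Gnrh1, the hormone of neurons that migrate along this nerve to the brain, ran from 0.325 to 349.7 CPM with a median of 3.99 at E13.5 and stood at 131, 6.31, 127 and 15.3 CPM at E16.5 (adjusted p = 0.863). Some libraries of both stages were over 100 CPM and others under 10. Of 7 such genes tested, 1 was called, higher at E16.5 (14.3%, against 15.2% of all genes). It was Calb2, a calcium-binding protein of olfactory neurons and bulb (means 22.7 ± 7.83 and 65.9 ± 20.1 CPM, adjusted p = 2.96e-05). The E13.5 replicate 1 library held 235 CPM of it, and by label it was not called (adjusted p = 0.705).

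Some cell division genes fell. Of 41 tested, 13 (31.7%) fell, against 13.6% of all genes, and none rose. The median was -0.30, and none of the falls reached a log2 fold change of -1. Mki67, a proliferation antigen, ran from 219.8 to 374 CPM with a median of 235 at E13.5 and stood at 141, 174, 214 and 158 CPM at E16.5 (log2 fold change -0.61, SE 0.19, adjusted p = 0.019). Ccnb1, the mitotic cyclin, ran from 251 to 374 CPM with a median of 302 and stood at 206, 173, 178 and 172 CPM (log2 fold change -0.75, SE 0.20, adjusted p = 0.00626). Their later libraries lay below the earlier ones. Gmnn, an inhibitor of replication licensing, fell from 94.5 ± 12.9 to 52.7 ± 3.75 CPM (log2 fold change -0.84, SE 0.14, adjusted p = 4.08e-05) and Pcna, the replication clamp, from 126 ± 17.5 to 79.01 ± 7.36 CPM (log2 fold change -0.67, SE 0.16, adjusted p = 0.00196). Top2a (means 391 ± 63.9 and 272 ± 54.3 CPM, adjusted p = 0.0103) and Ccna2 (means 147 ± 62.1 and 80.6 ± 17.4 CPM, adjusted p = 0.0194) fell with overlap between stages. Without E16.5 replicate 4 the list had 5 members lower, and Mki67 lost its call without E16.5 replicate 1 or 4 (adjusted p up to 0.0916), Top2a without replicate 2 (0.0678), and Ccna2 without E16.5 replicate 2 or 4 or E13.5 replicate 4 (up to 0.0798). The helicase genes Mcm2 to Mcm7 were not called.

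Of 10 cell cycle inhibitors, 2 (20.0%) rose and 2 (20.0%) fell, against 15.2% and 13.6% of all genes (by label 1 and none). Ccng1, a p53 target, rose from 68.4 ± 9.65 to 121 ± 10.8 CPM (log2 fold change 0.83, SE 0.19, adjusted p = 0.00117), and Cdkn2b, an inhibitor of cyclin-dependent kinases 4 and 6, rose within low levels (means 0.203 ± 0.142 and 0.79 ± 0.338 CPM, adjusted p = 0.0122, 0.0513 without E16.5 replicate 2, and 0.13 by label). Gas1, a hedgehog co-receptor, fell from 98.8 ± 29.01 to 35.2 ± 3.78 CPM (log2 fold change -1.49, SE 0.27, adjusted p = 1.11e-04), though not by label (adjusted p = 0.159). Cdkn1c, an imprinted inhibitor, ran from 92.3 to 371 CPM with a median of 107 and then stood at 59.9, 142, 54.02 and 73.4 CPM (adjusted p = 0.0338), and its call was lost when any 1 of E13.5 replicate 4 or E13.5 ONL replicate 1 or E16.5 replicates 1, 3, 4 was left out (adjusted p up to 0.137) and by label (0.0524). Cdkn1a, the p21 inhibitor, had means of 70.99 ± 6.04 and 59.4 ± 13.6 CPM (adjusted p = 0.254).

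Connective tissue matrix rose at E16.5. Of 28 fibrillar collagen and proteoglycan genes, 22 (78.6%) rose and 1 fell, with a median of 1.43, and their summed level was 8301 to 12383 CPM at E13.5 and 20340 to 30688 CPM at E16.5. Dcn, decorin, a collagen-binding proteoglycan of fibroblasts, ran from 17.1 to 283 CPM with a median of 48.03 at E13.5 and stood at 1739, 3234, 1647 and 1735 CPM at E16.5 (log2 fold change 4.64, SE 0.50, adjusted p = 5.98e-08). Col1a1, the main chain of type I collagen, ran from 161 to 276 CPM with a median of 208 and stood at 1059, 1670, 2052 and 1364 CPM (log2 fold change 2.91, SE 0.29, adjusted p = 1.39e-08). Col6a1, of the microfibrils around cells and nerves, ran from 39.8 to 60.9 CPM with a median of 51.1 and stood at 452, 481, 497 and 383 CPM (log2 fold change 3.15, SE 0.27, adjusted p = 8.91e-10). None of these overlapped. Lum, lumican, rose from 70.04 ± 63.6 to 724 ± 124 CPM and Col14a1, of collagen fibril surfaces, from 53.3 ± 12.1 to 291 ± 29.8 CPM. Col3a1 rose with overlap between stages (2067 to 4667 CPM with a median of 2331, then 9338, 3804, 8065 and 3568 CPM, adjusted p = 0.00353). The member that fell was Vcan, versican, a large proteoglycan of early mesenchyme (means 229.6 ± 40.6 and 103 ± 30.6 CPM, adjusted p = 9.40e-05).

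Of 17 basement membrane genes, which line nerve bundles, vessels and epithelia, 13 (76.5%) rose and none fell, with a median of 1.03. Col4a1, of the type IV collagen network, ran from 609.9 to 949.5 CPM with a median of 744 at E13.5 and stood at 2743, 1385, 2929 and 1269 CPM at E16.5 (log2 fold change 1.48, SE 0.20, adjusted p = 1.77e-06). E16.5 replicates 1 and 3 were above 2 and 4, as they were for Col3a1. Lama2, the laminin chain of nerve and muscle, rose from 54.9 ± 8.99 to 128 ± 33.1 CPM (log2 fold change 1.23, SE 0.22, adjusted p = 1.30e-04). Col18a1, the precursor of endostatin, rose from 117 ± 19.95 to 483 ± 171 CPM, Lamb2 from 34.3 ± 3.55 to 138 ± 16.3 CPM and Lama5 from 3.99 ± 0.986 to 12.04 ± 1.46 CPM (adjusted p = 0.018).

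Cartilage genes rose. Of 15 tested, 14 (93.3%) were higher at E16.5 and none lower, with a median of 3.54, the highest of the 33 lists. Col2a1, the main collagen of cartilage, ran from 63.6 to 369 CPM with a median of 137 at E13.5 and stood at 635, 3794, 1519 and 1521 CPM at E16.5 (log2 fold change 3.50, SE 0.35, adjusted p = 2.16e-08). Acan, the large proteoglycan of cartilage, ran from 2.68 to 16.1 CPM with a median of 5.36 and stood at 33.5, 201, 66.4 and 85.95 CPM (log2 fold change 3.92, SE 0.59, adjusted p = 9.77e-06). Matn1, matrilin, ran from 0.148 to 8.39 CPM with a median of 0.442 and stood at 39.1, 359, 88.3 and 106 CPM (log2 fold change 6.15, SE 0.77, adjusted p = 6.82e-07). Replicate 2 was the highest and replicate 1 the lowest of the E16.5 libraries in each of them, and the list sums were 1687, 8219, 3299 and 3591 CPM. Every E16.5 sum lay above the E13.5 ones (283 to 1118 CPM). Chad, chondroadherin, rose from 1.01 ± 0.93 to 50.8 ± 40.7 CPM, and Snorc, at or under 3 counts in all E13.5 libraries, was at least 9.496-fold higher. Sox9, the factor that specifies cartilage, was the exception (31.03 to 156 CPM with a median of 69.7, then 35.02, 96.9, 65.3 and 52.9 CPM, adjusted p = 0.336). How much of the nasal capsule entered each piece was not tested.

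Of 12 bone-forming genes tested, 2 (16.7%) rose and 1 (8.33%) fell, against 15.2% and 13.6% of all genes, and by label 1 rose and none fell. Sp7, the osteoblast factor osterix, rose from 1.19 ± 0.806 to 6.52 ± 4.49 CPM (adjusted p = 0.00216) and Spp1, osteopontin, from 5.89 ± 3.59 to 22.8 ± 3.47 CPM (adjusted p = 0.0252, 0.0561 without E16.5 replicate 2, and 0.172 by label). Dlx5, a homeobox gene of face and olfactory placode, fell from 40.6 ± 11.1 to 22.4 ± 5.53 CPM (adjusted p = 0.0314), and lost its call without any 1 of E13.5 replicates 3, 4 or E16.5 replicates 2, 3 (adjusted p up to 0.132) and by label (0.186). Runx2, the earlier osteoblast factor, had means of 11.2 ± 3.76 and 17.2 ± 7.88 CPM (adjusted p = 0.313), and Ibsp, bone sialoprotein, had no counts in 10 of the 11 libraries.

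Transcription factors of the mesenchyme that builds the face changed in both directions. Of 30 tested, 9 (30.0%) fell and 4 (13.3%) rose, against 13.6% and 15.2% of all genes tested, with a median of -0.25. Without E16.5 replicate 3 the number that fell was 5. Pax3, a neural crest factor, ran from 1.85 to 12.7 CPM with a median of 5.11 at E13.5 and stood at 0.371, 0.99, 1.43 and 1.38 CPM at E16.5 (log2 fold change -2.51, SE 0.61, adjusted p = 0.00271), each later library below the earlier ones. Pax7 fell from 7.31 ± 2.61 to 1.304 ± 1.85 CPM (adjusted p = 0.0145, up to 0.0545 without E16.5 replicate 3 or 4), and Prrx2, a homeobox gene of facial and limb mesenchyme, from 38.2 ± 24.96 to 10.9 ± 2.25 CPM (log2 fold change -1.82, SE 0.40, adjusted p = 0.00101). Msx2, a homeobox gene of skull and skin appendages, rose from 0.515 ± 0.34 to 3.91 ± 1.66 CPM (adjusted p = 0.0175, and 0.0512 without E16.5 replicate 1). Tbx15 rose from 15.4 ± 8.02 to 51.7 ± 15.5 CPM and Meox1 from 4.56 ± 2.03 to 13.7 ± 0.967 CPM. Alx1, a master gene of the frontonasal region (means 162 ± 30.02 and 198 ± 46.8 CPM, adjusted p = 0.595), and Tfap2b, a neural crest factor (means 377 ± 62.4 and 299 ± 39.5 CPM, adjusted p = 0.311), were not called. By label 3 of the 30 fell and 3 rose, and Pax7 (adjusted p = 0.0598) and Prrx2 (0.0994) were not among them.

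Genes of the vessel wall rose. Of 12 genes of pericytes and smooth muscle, 7 (58.3%) rose and none fell, with a median of 1.56. Acta2, smooth muscle actin, ran from 13.8 to 81.8 CPM with a median of 37.1 at E13.5 and stood at 2056, 202, 1620 and 799.8 CPM at E16.5 (log2 fold change 4.83, SE 0.79, adjusted p = 3.51e-05). Tagln, a smooth muscle actin-binding protein, ran from 5.26 to 15.3 CPM with a median of 8.58 and stood at 321, 32.1, 252 and 152 CPM (log2 fold change 4.28, SE 0.48, adjusted p = 1.31e-07). Rgs5, a pericyte regulator of G proteins, ran from 12.4 to 63.9 CPM with a median of 33.6 and stood at 366, 137, 255 and 183 CPM (log2 fold change 2.77, SE 0.32, adjusted p = 1.54e-07). Replicates 1 and 3 were the highest and replicate 2 the lowest in each, and the list sums were 3321, 880.0, 2866 and 1588 CPM, against 253 to 493 CPM at E13.5. Myh11, smooth muscle myosin, rose from 4.15 ± 3.997 to 46.996 ± 29.2 CPM and Higd1b, a pericyte gene, from 0.5 ± 0.348 to 9.25 ± 3.36 CPM. Pdgfrb, the pericyte growth factor receptor, rose too (means 157 ± 29.8 and 281 ± 78.9 CPM), and Notch3 had means of 31.7 ± 8.59 and 32.3 ± 8.51 CPM and was not called.

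Of 18 endothelial genes, 7 (38.9%) rose and none fell, with a median of 0.66. Cldn5, the tight junction protein of barrier vessels, ran from 20.6 to 42.2 CPM with a median of 32.1 at E13.5 and stood at 145, 95.1, 119 and 63.1 CPM at E16.5 (log2 fold change 1.72, SE 0.34, adjusted p = 2.94e-04), and the stages did not overlap. Esam, a junction adhesion molecule, rose from 55.2 ± 12.1 to 145 ± 44.96 CPM (log2 fold change 1.39, SE 0.28, adjusted p = 3.32e-04) and Tek, the angiopoietin receptor, from 21.6 ± 9.43 to 53.9 ± 26.2 CPM (log2 fold change 1.32, SE 0.36, adjusted p = 0.00616). Pecam1 passed narrowly (57.8 to 111 CPM with a median of 78.6, then 211, 81.3, 242 and 108 CPM, adjusted p = 0.0462), and lost its call without any 1 of E13.5 replicates 2, 3, 4, 6 or E13.5 ONL replicate 1 or E16.5 replicates 1, 3 (adjusted p up to 0.175) and by label (0.1). Cdh5, the endothelial cadherin, was at 28.7 to 48.3 CPM with a median of 40.6 and then 49.8, 21.8, 47.6 and 31.5 CPM, and was not called (adjusted p = 0.922).

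**Figure D5:**
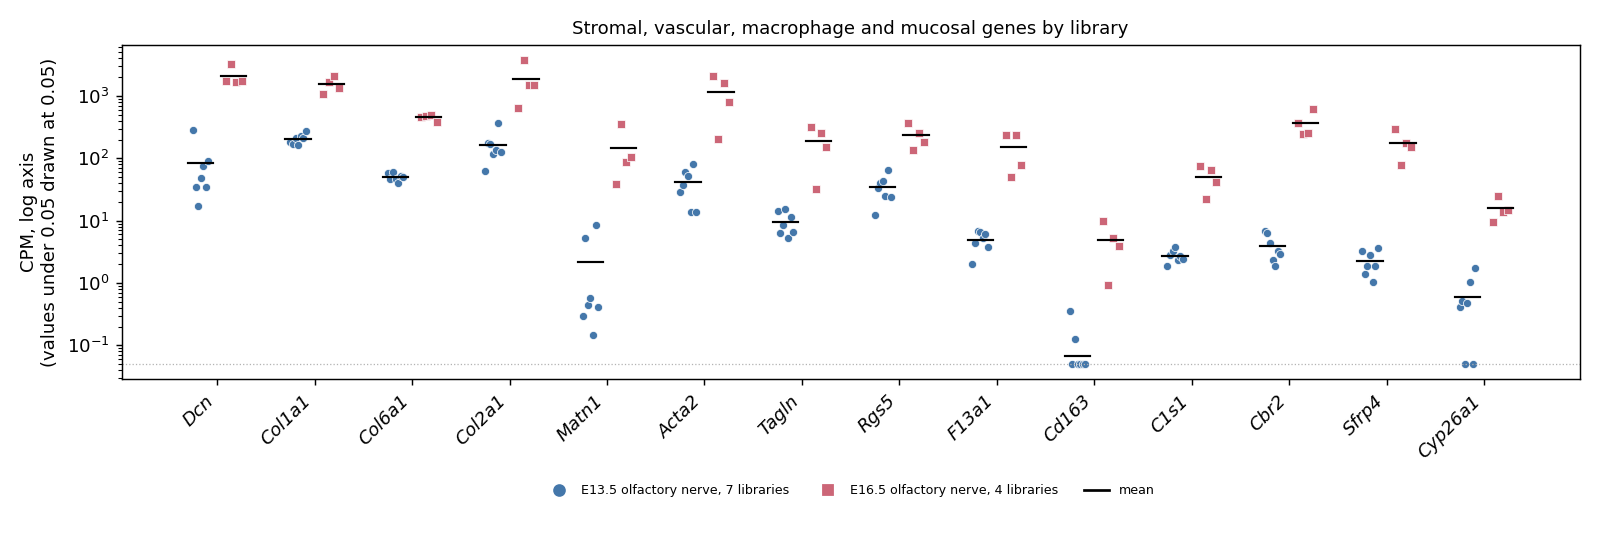
Level of matrix, cartilage, mural, macrophage, complement, epithelial and signalling genes in each library (CPM, log axis, values under 0.05 drawn at 0.05), E13.5 as blue circles and E16.5 as red squares, with black bars for means. The later libraries lie above the earlier ones for all 14 genes shown, with Matn1 at 39.1 to 359 CPM and Acta2 at 202 to 2056 CPM.

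Macrophage genes rose. Of 22 tested, 17 (77.3%) were higher and none lower, with a median of 1.35. F13a1, factor XIII of resident macrophages, ran from 1.99 to 6.75 CPM with a median of 5.18 at E13.5 and stood at 238, 50.7, 236 and 78.2 CPM at E16.5 (log2 fold change 4.92, SE 0.51, adjusted p = 3.57e-08). Lyve1, a hyaluronan receptor of lymphatics and perivascular macrophages, ran from 0.189 to 2.57 CPM with a median of 1.95 and stood at 42.1, 14.5, 44.7 and 22.9 CPM (log2 fold change 4.32, SE 0.57, adjusted p = 2.77e-06). Cd163, the haemoglobin scavenger receptor, ran from 0 to 0.351 CPM with a median of 0 and then stood at 9.72, 0.928, 5.201 and 3.99 CPM (adjusted p = 3.48e-04). The stages were apart in each of them. Csf1r, the receptor that macrophages need, rose from 33.8 ± 11.7 to 123 ± 51.6 CPM (log2 fold change 1.86, SE 0.46, adjusted p = 0.00273), and Mrc1, the mannose receptor, from 21.5 ± 7.33 to 64.7 ± 32.5 CPM (log2 fold change 1.59, SE 0.42, adjusted p = 0.00458). C1qa, a complement subunit, rose from 33.4 ± 12.4 to 65.6 ± 20.1 CPM (adjusted p = 0.0404), a call lost without any 1 of E13.5 replicates 2, 3, 5, 6 or E16.5 replicates 1, 2, 3 (adjusted p up to 0.159) and by label (0.0545). Without E16.5 replicate 1, 11 members were called.

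Granulocyte and mast cell genes were not called in either direction, 0 of 13 by edgeR's quasi-likelihood test and 1 by DESeq2, with 4 at an unadjusted p under 0.05. Their median was -0.74, or -1.66 with members near the floor at their bound. The sum of the list was 62.2 to 1118 CPM at E13.5, where the library labelled E13.5 ONL replicate 1 was the highest, and 62.6 to 144 CPM at E16.5. Mpo, myeloperoxidase, did not exceed 1.82 CPM in any of the 11 libraries (adjusted p = 0.973).

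Complement and antigen presentation genes rose. Of 23 tested, 16 (69.6%) were higher and none lower, with a median of 1.56. C1s1, a protease of the first complement step, ran from 1.87 to 3.73 CPM with a median of 2.73 at E13.5 and stood at 74.6, 21.9, 64.7 and 41.1 CPM at E16.5 (log2 fold change 4.21, SE 0.37, adjusted p = 1.72e-09). Tap2, a peptide transporter, ran from 0 to 1.39 CPM with a median of 0.5259 and stood at 8.79, 7.74, 9.95 and 5.37 CPM (log2 fold change 3.61, SE 0.62, adjusted p = 6.06e-05). Their ranges at the 2 stages were apart. C4b, of the complement cascade, rose from 0.16 ± 0.188 to 5.28 ± 1.49 CPM (adjusted p = 2.85e-06). B2m, the light chain of class I molecules, ran from 107 to 199 CPM with a median of 144 and stood at 328, 217, 279 and 206 CPM (log2 fold change 0.82, SE 0.21, adjusted p = 0.003). The class I heavy chains H2-K1 (means 10.9 ± 2.69 and 22.98 ± 7.04 CPM) and H2-D1 (means 34.5 ± 5.34 and 75.8 ± 20.8 CPM) rose, and their reads can be shared among near-identical genes. C3, the central component, was not called (means 1.095 ± 1.87 and 2.18 ± 1.28 CPM, adjusted p = 0.37).

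Several genes of basal cells and nasal glands rose. Of 23 olfactory epithelium and gland genes tested, 9 (39.1%) rose and 2 fell, with a median of 1.11. By label 9 rose and none fell, and at most 1 fell without E13.5 replicate 2, 3 or 4 or E16.5 replicate 2 or 3. Cbr2, a carbonyl reductase of airway and nasal epithelium, ran from 1.85 to 6.78 CPM with a median of 3.29 at E13.5 and stood at 370.5, 244, 258 and 619 CPM at E16.5 (log2 fold change 6.57, SE 0.41, adjusted p = 3.27e-11). Krt5, a keratin of basal cells, ran from 0 to 0.643 CPM with a median of 0.0829 and stood at 15.3, 1.92, 12.4 and 19.4 CPM (adjusted p = 9.82e-06). All 4 later libraries exceeded the 7 earlier ones. Scgb1c1, a secretoglobin of nasal glands, was at or under 3 counts in every E13.5 library and at 10.5, 0.557, 4.55 and 5.76 CPM at E16.5, at least 20.7-fold higher. Krt14 (means 1.02 ± 0.629 and 19.1 ± 10.6 CPM) and Trp63 (means 1.07 ± 0.643 and 21.5 ± 9.09 CPM), of basal cells, rose as well. Replicate 2 was the lowest of the E16.5 libraries for Cbr2, Krt5 and Scgb1c1.

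Epcam, the epithelial adhesion molecule, ran from 67.01 to 206 CPM with a median of 103 and then stood at 84.9, 26.1, 45.2 and 71.5 CPM (adjusted p = 0.0189), and lost its call without E16.5 replicate 2 or 3 or E13.5 replicate 4 (adjusted p up to 0.0966). By label it was not called (adjusted p = 0.245). The keratin Krt18 (means 70.999 ± 26.4 and 77.3 ± 49.99 CPM, adjusted p = 0.835) and Sox2, a progenitor factor (means 12.7 ± 4.86 and 4.72 ± 1.84 CPM, adjusted p = 0.159), were not called. Skeletal muscle genes summed to 20.9 to 44.6 CPM at E13.5 and 21.2 to 31.8 CPM at E16.5. Of 13 tested, 1 was called, higher at E16.5 (7.69%, against 15.2% of all genes). This was Acta1, skeletal actin (means 0.971 ± 0.446 and 2.04 ± 0.917 CPM, adjusted p = 0.0476), whose call was lost without any 1 of E13.5 replicates 3, 4, 5, 7 or E16.5 replicates 1, 2 (adjusted p up to 0.261) and by label (0.0521). Myog reached 1.66 CPM at most, and Ttn went from 1.95 ± 1.84 to 1.001 ± 0.532 CPM (adjusted p = 0.333).

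Enzymes that process odorants and foreign compounds rose. Of 20 tested, 11 (55.0%) were higher and none lower, with a median of 1.29. Adh1, alcohol dehydrogenase, ran from 0 to 0.409 CPM with a median of 0.162 at E13.5 and stood at 25.5, 6.498, 17.4 and 6.48 CPM at E16.5 (adjusted p = 1.39e-08). Sult1a1, a sulfotransferase, ran from 1.48 to 6.72 CPM with a median of 4.2998 and stood at 24.4, 29.95, 19.5 and 16.1 CPM (log2 fold change 2.40, SE 0.40, adjusted p = 4.19e-05). Neither overlapped between stages. Fmo2, a flavin monooxygenase, rose from 2.21 ± 1.09 to 11.1 ± 4.55 CPM (log2 fold change 2.36, SE 0.47, adjusted p = 4.63e-04). Gstm1, a glutathione transferase, was uneven at E13.5 (78.7 to 1108 CPM with a median of 159, then 584, 344, 460.2 and 401 CPM, adjusted p = 0.571), and Aldh1a7 was not called (means 2.98 ± 3.25 and 8.797 ± 1.897 CPM, adjusted p = 0.114).

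Retinoic acid genes, which pattern the nose and its nerve, moved in both directions. Of 18 tested, 5 (27.8%) rose and 3 (16.7%) fell, against 15.2% and 13.6% of all genes tested. Cyp26a1, which degrades retinoic acid and is its target, ran from 0 to 1.74 CPM with a median of 0.487 at E13.5 and stood at 9.59, 24.7, 13.8 and 14.8 CPM at E16.5 (log2 fold change 4.72, SE 0.89, adjusted p = 1.97e-04). Rxrg, a nuclear retinoid receptor, ran from 6.99 to 17.9 CPM with a median of 10.98 and stood at 57.98, 71.3, 51.6 and 35.6 CPM (log2 fold change 2.25, SE 0.26, adjusted p = 1.80e-07). Both were higher in every later library. Rbp4, the plasma retinol carrier, rose from 1.07 ± 1.16 to 9.91 ± 2.75 CPM (log2 fold change 3.16, SE 0.71, adjusted p = 0.00116). The intracellular binding proteins fell, Crabp2 from 340.1 ± 105 to 132 ± 35.6 CPM (adjusted p = 2.99e-04) and Crabp1 from 228 ± 113 to 112 ± 37.7 CPM (adjusted p = 0.0243), the latter losing its call without any 1 of E13.5 replicate 2 or E16.5 replicates 1, 2, 3 (adjusted p up to 0.115) and by label (0.115). The synthesising enzymes Aldh1a2 (means 776 ± 131 and 477 ± 152 CPM, adjusted p = 0.178) and Aldh1a3 (means 145 ± 48.8 and 198 ± 37.04 CPM, adjusted p = 0.417) were not called.

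Of 12 insulin-like growth factor genes, 3 (25.0%) rose and 1 (8.33%) fell, against 15.2% and 13.6% of all genes. The binding proteins Igfbp6 (1.04 to 6.96 CPM with a median of 3.65, then 33.4, 50.3, 25.2 and 25.9 CPM) and Igfbp7 (4.06 to 19.9 CPM with a median of 7.97, then 52.7, 27.4, 46.8 and 48.9 CPM) rose (log2 fold change 2.99, SE 0.46, and 2.21, SE 0.40), with every later library above the earlier ones. Igfbp5 was not called (means 833 ± 169.5 and 631 ± 124 CPM, adjusted p = 0.263). The receptor Igf1r fell from 114 ± 16.7 to 73.8 ± 14.2 CPM (adjusted p = 0.016, up to 0.108 without E16.5 replicate 1 or 3). Igf2, a fetal growth factor, rose from 673 ± 127 to 1084 ± 221 CPM (adjusted p = 0.0389), and its call was lost without any 1 of E13.5 replicates 2, 3, 5, 6 or E16.5 replicates 1, 2 (up to 0.158) and by label (0.105). Igf1 had means of 184 ± 39.1 and 184 ± 44.6 CPM (adjusted p = 0.989).

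Of 21 imprinted genes, 6 (28.6%) rose and 4 fell, and without E16.5 replicate 2 the number that rose was 3, while without replicate 1 or 4 the number that fell was 2. Zim1, a zinc finger gene, ran from 1.999 to 6.36 CPM with a median of 4.31 at E13.5 and stood at 14.2, 44.4, 20.9 and 30.6 CPM at E16.5 (log2 fold change 2.86, SE 0.52, adjusted p = 1.38e-04). Peg10, a retrotransposon-derived gene, fell from 14.6 ± 3.62 to 5.11 ± 1.14 CPM (log2 fold change -1.51, SE 0.29, adjusted p = 2.34e-04). Gnas rose from 6.67 ± 3.49 to 22.1 ± 12.8 CPM (adjusted p = 0.00117), but its locus holds overlapping transcripts that counting can set aside, so the level is uncertain. H19 (means 763 ± 213 and 884 ± 304 CPM, adjusted p = 0.681) and Dlk1 (means 104 ± 45.6 and 122 ± 56.8 CPM, adjusted p = 0.6) were not called.

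In the Wnt pathway 7 of 38 genes (18.4%) rose and 6 (15.8%) fell, near the shares over all genes. Sfrp4, a frizzled-related antagonist, ran from 1.04 to 3.65 CPM with a median of 1.89 at E13.5 and stood at 293, 78.6, 175 and 154 CPM at E16.5 (log2 fold change 6.24, SE 0.46, adjusted p = 9.31e-11). Wif1, a Wnt-binding inhibitor of OECs, mesenchyme and cartilage, ran from 0.406 to 3.66 CPM with a median of 1.68. At E16.5 it stood at 12.9, 68.6, 38.1 and 51.5 CPM (log2 fold change 4.60, SE 0.39, adjusted p = 2.04e-09). For both, no later library fell within the earlier range. Sfrp2 was not called (means 123 ± 76.2 and 228 ± 50.9 CPM, adjusted p = 0.0694). The nuclear effector Lef1 rose from 3.59 ± 0.855 to 11.96 ± 1.58 CPM (log2 fold change 1.73, SE 0.19, adjusted p = 8.21e-08), and Axin2, a feedback target, had means of 4.54 ± 0.872 and 6.84 ± 1.205 CPM (adjusted p = 0.126). Rspo4, an agonist, had no count in any E16.5 library and at most 0.49 CPM at E13.5 (adjusted p = 0.00196). The receptors Fzd8 (means 12.5 ± 2.24 and 4.56 ± 0.0963 CPM), Lgr4 (means 62.7 ± 16.7 and 34.1 ± 6.39 CPM), Fzd2 (means 80.1 ± 19.9 and 52.4 ± 3.85 CPM) and Lrp6 (means 133 ± 15.2 and 91.7 ± 17.8 CPM) fell. By label 2 genes rose and 3 fell, and Wif1 (adjusted p = 0.0761), Lef1 (0.388), Lgr4 (0.0565), Fzd2 (0.107) and Lrp6 (0.238) were not called.

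In the BMP and TGF-beta pathways 10 of 30 genes (33.3%) rose and 4 (13.3%) fell, against 15.2% and 13.6% of all genes tested. Tgfb3, a ligand, ran from 25.6 to 52.4 CPM with a median of 32.9 at E13.5 and stood at 96.97, 139, 119.6 and 91.6 CPM at E16.5 (log2 fold change 1.70, SE 0.23, adjusted p = 1.92e-06). Its type II receptor Tgfbr2 ran from 46.9 to 69.9 CPM with a median of 59.5 and stood at 177, 113, 244 and 145 CPM (log2 fold change 1.503, SE 0.21, adjusted p = 4.60e-06), while the type I receptor Tgfbr1 fell from 187 ± 38.1 to 96.9 ± 21.2 CPM (adjusted p = 0.00265). Tgfb3 and Tgfbr2 did not overlap between stages. The BMP receptors Bmpr1a (means 117 ± 13.6 and 73.1 ± 2.73 CPM) and Bmpr2 (means 89.3 ± 15.5 and 49.8 ± 3.81 CPM) fell. Bmp6 rose within low levels (means 0.984 ± 0.7 and 3.66 ± 4.07 CPM, adjusted p = 0.0127), and without E16.5 replicate 2 it was not called (log2 fold change 0.73, adjusted p = 0.375), nor by label (0.263). Bmp4 (means 45.4 ± 13.1 and 65.2 ± 22.9 CPM, adjusted p = 0.159), Tgfb2 (means 107 ± 18.6 and 109.9 ± 10.4 CPM, adjusted p = 0.884) and the target Id1 (means 132 ± 20.5 and 174 ± 31.6 CPM, adjusted p = 0.116) were not called.

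Of the 4 nuclear factor I genes, which drive glial differentiation in the brain, 1 rose (25.0%, against 15.2% of all genes). Nfic went from 54.002 ± 8.2996 to 104 ± 24.2 CPM (log2 fold change 0.94, SE 0.19, adjusted p = 5.00e-04), and 2 genes passed without E16.5 replicate 1 or 3 or E13.5 replicate 2. Nfix (means 14.1 ± 3.22 and 28.5 ± 12.6 CPM, adjusted p = 0.0505), Nfia (means 164 ± 16.4 and 145 ± 10.7 CPM, adjusted p = 0.415) and Nfib (means 683 ± 105 and 637 ± 98.1 CPM, adjusted p = 0.719) were not called.

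Of 25 glucocorticoid-responsive and circadian genes, 8 (32.0%) rose and 1 (4.0%) fell, against 15.2% and 13.6% of all genes. The number that rose was 5 without E16.5 replicate 2 and 5 by label. Zbtb16, a zinc finger factor induced by steroid hormones, rose from 0.111 ± 0.121 to 1.38 ± 0.752 CPM (adjusted p = 2.03e-04) and Klf9 from 2.55 ± 1.05 to 5.495 ± 0.429 CPM (adjusted p = 0.0144). Nr1d1, a repressor of the circadian clock, rose from 1.18 ± 0.428 to 3.11 ± 1.28 CPM (adjusted p = 0.00759), though not by label (adjusted p = 0.0772) or without E16.5 replicate 2 (0.0500024). Per1 passed narrowly (means 5.45 ± 1.28 and 9.84 ± 2.19 CPM, adjusted p = 0.0491), and its call was lost without any 1 of E13.5 replicates 3, 5, 6, 7 or E13.5 ONL replicate 1 or E16.5 replicates 1, 2, 4 (up to 0.121) and by label (0.0839). The steroid-induced Fkbp5 (means 23.4 ± 4.91 and 17.2 ± 3.37 CPM, adjusted p = 0.0702) and Tsc22d3 (means 209 ± 22.7 and 249 ± 35.8 CPM, adjusted p = 0.185) were not called.

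Of 20 hypoxia and glycolysis genes, 5 (25.0%) rose and 1 (5.0%) fell, against 15.2% and 13.6% of all genes. By label 3 rose. Hk1, a hexokinase, rose from 30.6 ± 8.25 to 69.5 ± 21.7 CPM (log2 fold change 1.18, SE 0.24, adjusted p = 5.03e-04) and Slc2a1, the glucose transporter of barrier vessels and red cells, from 65.9 ± 9.79 to 117 ± 21.6 CPM (log2 fold change 0.83, SE 0.16, adjusted p = 2.03e-04), the latter not called by label (adjusted p = 0.0673). Pfkp rose from 17.03 ± 2.504 to 29.5 ± 9.21 CPM (adjusted p = 0.00261), but by label its log2 fold change was -0.20 (adjusted p = 0.786). Gapdh fell from 575 ± 136 to 335 ± 34.6 CPM (log2 fold change -0.78, SE 0.21, adjusted p = 0.00468), and Vegfa had means of 36.2 ± 15.8 and 29.4 ± 5.15 CPM (adjusted p = 0.414).

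Of 16 immediate early and stress genes, 5 (31.2%) rose and 1 (6.25%) fell, against 15.2% and 13.6% of all genes. Nr4a1 ran from 7.997 to 25.6 CPM with a median of 10.7 at E13.5 and stood at 28.3, 55.1, 31.99 and 27.2 CPM at E16.5 (log2 fold change 1.498, SE 0.25, adjusted p = 3.52e-05). Ier3 rose from 26.01 ± 9.13 to 64.6 ± 19.6 CPM (adjusted p = 8.37e-04) and Fos from 5.301 ± 3.61 to 15.5 ± 3.71 CPM (adjusted p = 0.0283), and Fos lost its call without any 1 of E13.5 replicates 2, 7 or E16.5 replicates 2, 3 (adjusted p up to 0.0732). Jund fell from 7.72 ± 6.56 to 2.21 ± 0.256 CPM (adjusted p = 0.0156, up to 0.0551 without E16.5 replicate 3 or E13.5 replicate 4). Jun (means 31.6 ± 15.4 and 37.1 ± 4.97 CPM, adjusted p = 0.668) and Egr1 (means 22.6 ± 13.9 and 32.3 ± 9.47 CPM, adjusted p = 0.353) were not called. Without E16.5 replicate 3, or without E13.5 replicate 2, 3 genes rose.

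Transcripts of the mitochondrial genome were lower. Of 14 tested, 12 (85.7%) fell and none rose, with a median of -1.29. mt-Nd1, a subunit of complex I, ran from 1790 to 3541 CPM with a median of 2424 at E13.5 and stood at 906, 1192, 1068 and 1062 CPM at E16.5 (log2 fold change -1.22, SE 0.19, adjusted p = 1.22e-05), and mt-Nd2 fell from 867 ± 229 to 303 ± 64.7 CPM (log2 fold change -1.52, SE 0.26, adjusted p = 7.14e-05). The genes mt-Nd3 (means 2.82 ± 1.54 and 0.716 ± 0.285 CPM, adjusted p = 0.00642) and mt-Atp8 (means 58.6 ± 32.99 and 19.1 ± 2.89 CPM, adjusted p = 0.0135, and 0.0548 without E16.5 replicate 3) fell too. mt-Co1, of complex IV, was not called (means 1328 ± 345 and 905 ± 289 CPM, adjusted p = 0.0688). The share of such transcripts can also move with RNA quality and handling, and its part in the other results was not tested.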

How the data were processed

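Laser-captured pieces of Sox10:Histone2BVenus mouse embryos gave full-length cDNA libraries (SMART-seq V4, Nextera XT) sequenced on a NextSeq 500. The authors checked reads with FastQC, aligned them to mm10 with TopHat2 2.1.0 and counted reads per gene with HTSeq, and deposited raw counts for 47729 genes in 31 libraries. The strand setting was not given in the sources used here, so antisense and overlapping genes cannot be told apart. 1 line without a gene name was left out. Stage and sequencing run cannot be told apart from the labels.

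From the deposited counts, all 31 libraries were fitted in edgeR 4.0.16 (TMM scaling, filterByExpr by group, quasi-likelihood test, Benjamini-Hochberg adjustment, R 4.3.3), with groups as in the study's table of group means. By least squares over 1844 genes, each of the 7 E13.5 libraries has a weight of 0.1429 in that table, with a median residual of 0.00011%. Calls were at an adjusted p under 0.05. Scripts were tested on simulated data. A floor of 3 counts per library, covering counting error only, averaged 0.258 CPM at E13.5 and 0.183 CPM at E16.5. Where a group's mean was at or under it, folds are bounds or are not given. Alternatives were DESeq2 1.42.0, other scalings and filters, the grouping by label, the 11 libraries alone, a replicate block and each library left out. Nothing says that replicates came from separate litters, so p-values measure the spread between pieces. Members and lists were chosen with earlier results of these data known. Genes named were anchors of each list, up to 3 further called members with the largest change, and the 10 largest rises and falls of at least 50 CPM without overlap. Other members were named after their values were seen: Apoe, Arid3a, Bmpr1a, Bmpr2, Crabp2, Elavl3, Elavl4, Erbb3, Frzb, Fyn, Fzd2, Fzd8, Gfap, H2-D1, H2-K1, Hes1, Hes5, Hmga1, Igf2bp2, Krt14, Lgr4, Lrp6, Mcm2 to Mcm7, Meox1, Mmd2, Mycn, Ngfr, Nhlh1, Notch3, Nrp1, Pdgfrb, S100b, Sema3b, Sema6a, Tbx15, Tgfbr1, Trp63 and Vcan. Results for a few genes are not reported here.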

Additional observations from a re-analysis of the deposited data

Results flagged for a closer look

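Of 348 sets of values of a named gene in 1 group, 36 (10.3%) had a highest or lowest library far from the others by Dixon's criterion at the 95% level. The criterion flags about 1 in 20 by chance if values are normally distributed, which was not tested for these CPM. The 36 sets are given as values in CPM, and their causes were not tested.

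Among the E16.5 libraries, replicate 1 was the highest for Ccnb1 (206), Gmnn (58.3), Hba-a1 (3815) and Acta1 (3.40). Replicate 2 was the highest for Nefl (8.85), Dcn (3234), Bmp6 (9.72) and Nr4a1 (55.1). Replicate 3 was the highest for Nefm (1.37), Ibsp (0.715) and Xist (172), and replicate 4 for Crabp1 (168).

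Among the E13.5 libraries, replicate 2 was the highest for the matrix genes Dcn (283) and Lum (208), for Aldh1a3 (247), Crabp1 (466) and Cd163 (0.351), and the lowest for Kif26b (29.7). Replicate 7 was the highest for the cartilage genes Col2a1 (369), Acan (16.1) and Chad (3.01), for Tgfb3 (52.4) and for H19 (1222). Replicate 4 was the highest for the immediate early genes Fos (12.996), Nr4a1 (25.6) and Ier3 (44.7). Replicate 3 was the highest for mt-Co1 (2057) and the lowest for Lamb2 (26.3). Replicate 6 was the highest for Omp (14.1) and Rbp4 (3.41) and the lowest for Hba-a2 (0.889). The library labelled E13.5 ONL replicate 1 was the highest for Fabp7 (769), Igf2bp1 (22.5), Myog (1.66) and C3 (5.31), and the lowest for Cdkn1a (58.1).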

How the results depend on the processing

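The depth of 5297347 counts in the shallowest library limits genes near the floor. Of the 178 named genes, 132 were called, 80 of them under every alternative, 91 under all but the replicate block and 104 with any 1 library left out. The total of 5564 calls was 4676 to 6386 under the alternatives of tool, scaling, filter, grouping and fitted libraries. Requiring a log2 fold change of at least 1 left 2374 calls, 1512 higher and 862 lower. With any 1 library left out, 4116 to 5382 genes were called, 2397 to 3232 higher and 1459 to 2566 lower. The share of calls that were higher moved from 52.66% to 64.6% without E16.5 replicate 3 and to 63.1% without replicate 4.

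The labels link libraries of the 2 stages only by a number. Same-numbered libraries had correlations of -0.108 to 0.0206 over 3 pairs, and other pairs ran from -0.125 to 0.171. So few pairs cannot tell whether a number marks shared handling. With the number as a replicate block, 2169 genes were called, 1344 higher and 825 lower. Under the replicate block, direction also turned for genes that were not called: Gnrh1 (log2 fold change 1.82), Nfib (0.078), Sox9 (0.083), Hba-a1 (-0.19), Krt18 (-0.81), Gstm1 (-0.48), Igf1 (0.37) and Vegfa (0.046).

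By label, the called Npy (-0.65) and Pfkp (-0.20) and the uncalled Nfib (0.036) turned. Igf1 turned to 0.0432 with DESeq2 size factors, 0.0434 in DESeq2, 0.0088 without a filter, 0.0081 with a stricter filter and 0.014 in the 11 libraries alone. With any 1 library left out, values ran across 0 for more genes that were not called: Igf1 (-0.18 to 0.10), Gnrh1 (-0.87 to 0.55), Mpo (-0.96 to 0.70), Cdh5 (-0.22 to 0.13), H19 (-0.0404 to 0.38), Dlk1 (-0.13 to 0.42), Hba-a1 (-0.0736 to 0.79), Krt18 (-0.43 to 0.39) and Tgfb2 (-0.0026 to 0.10). The causes were not tested.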

Other observations

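Some gene families outside the lists, chosen after their values were seen, were lower in part or most of their members. Of 85 ribosomal protein genes tested, 73 were lower at E16.5 and none higher, with a median log2 fold change of -0.83, against 13.6% lower among all genes. Without E16.5 replicate 3 the number was 42. Reads of these genes can be shared with pseudogene copies. Of 56 genes of splicing factors and hnRNP proteins, 39 were lower and none higher, with a median of -0.72. They include Hnrnpab, an RNA-binding protein among the 10 largest falls. Of 38 replication-dependent histone genes, 12 were lower and none higher, with a median of -0.66, and 5 to 7 without any 1 of E13.5 replicate 4 or the E16.5 replicates. With a replicate block, 3 of 34 were lower.

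Of 194 odorant receptor genes tested, 17 were higher and 10 lower by edgeR's quasi-likelihood test, against 15.2% and 13.6% of all genes, with a median of 0.44, and DESeq2 called 1 and 5. In the 11 libraries alone 12 were higher and 12 lower, and without E16.5 replicate 4 the counts were 8 and 9. By label they were 14 and 4.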
